A study of Homo sapiens with 10 samples.

Results

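Swelling cells release chloride and organic osmolytes through volume-regulated anion channels, and phospholipid scramblases let phosphatidylserine pass from the inner to the outer leaflet of the plasma membrane. The expression of 10 genes of these systems was compared between EA.hy926 and HMEC-1, both lines of human endothelial origin. The genes were LRRC8A, LRRC8B, LRRC8C, LRRC8D and LRRC8E (channel subunits), ANO1, ANO6 and ANO10 (anoctamins), XKR8 and PLSCR1, chosen by symbol through the GENCODE 44 annotation, 10 of the 60448 genes in the count table. EA.hy926 is a hybrid of umbilical vein endothelial cells with A549, a lung adenocarcinoma line, and HMEC-1 consists of dermal microvascular endothelial cells immortalized with the SV40 large T antigen. Both are wild type in the labels, untreated, and each a single established line, with 5 biological replicates of confluent monolayers per line. EA.hy926 was grown in Advanced DMEM and HMEC-1 in MCDB 131 with epidermal growth factor and hydrocortisone, and the fetal bovine serum was 5% for EA.hy926 and 10% for HMEC-1. Cells of both lines were detached with trypsin before lysis. Effects of the line, its medium and the serum concentration cannot be told apart.

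A volume-regulated anion channel is a hexamer of LRRC8 proteins in which LRRC8A is indispensable and the other paralogs set what the channel conducts. Complexes with LRRC8D pass uncharged osmolytes and drugs such as blasticidin and cisplatin, whereas those with LRRC8C or LRRC8E have been described as conduits for the cyclic dinucleotide cGAMP. Among the anoctamins, ANO1 is a Ca2+-activated chloride channel and ANO6 a Ca2+-activated scramblase and ion channel, whereas XKR8 scrambles lipids after cleavage by caspases. In endothelium, anion channels take part in volume and tone control, and exposed phosphatidylserine offers a surface for coagulation.

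mRNA was selected with oligo(dT) and counted per gene. Total counts were 34846046 to 39899324 for EA.hy926 libraries and 33391640 to 43877224 for those of HMEC-1. Levels are given as CPM, counts scaled to the TMM-adjusted size of the library, as mean ± SD over 5 replicates, and where genes are compared with each other as CPM per kilobase of exon. The log2 fold change (log2FC) sets EA.hy926 over HMEC-1. All p-values are adjusted p-values of edgeR's quasi-likelihood test (Benjamini-Hochberg over 16310 genes), and differentially expressed means an absolute log2FC above 1 together with an adjusted p below 0.05. All 12 listed endothelial markers were detected, with summed levels of 6223 to 6957 CPM for EA.hy926 against 2138 to 2208 CPM for HMEC-1, and 8 of them were differentially expressed, all higher in EA.hy926. Of 12 epithelial markers, 7 were tested, 2 were higher and 3 lower in EA.hy926, with a summed level of 1275 to 1389 CPM against 429 to 491 CPM. CDH1, ESRP1, ELF3, GRHL2 and OVOL1 had at most 3 counts in any library. The higher markers were KRT8, a keratin of simple epithelia (546 ± 21.7 against 19.2 ± 0.947 CPM), and EPCAM (0.895 ± 0.198 against 0.246 ± 0.169 CPM). The lower markers were KRT19 (0.132 ± 0.0565 against 3.56 ± 0.449 CPM), CLDN7 (0.159 ± 0.0929 against 3.81 ± 0.296 CPM) and CLDN4 (0.547 ± 0.145 against 1.47 ± 0.223 CPM). The part of these identity genes in the differences described here was not tested.

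Of the 10 genes, 9 passed the filter on low counts and ANO1 did not. Differentially expressed were LRRC8B, LRRC8D and PLSCR1, all higher in EA.hy926. That is 3 of 9 genes, against 35.5% of all genes tested, or 19.1% in this direction. By the adjusted p alone 8 of 9 passed, as did 85.8% of all genes tested. Of these, 7 were higher in EA.hy926 (background 42.6%) and 1, XKR8, was lower (background 43.3%). The CPM values of the lines did not overlap for 8 of the 9 genes, against 77.4% of all genes tested. The median log2FC of the 9 genes was 0.68, and that of all genes tested was -0.010. Without regard to direction, the shares past both thresholds and past the adjusted p lie near the background. The shares by direction lie further from it, but rest on 9 genes chosen with earlier results of these data known. No result about the 10 genes as a group is read from any of these shares.

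**Figure D1:**
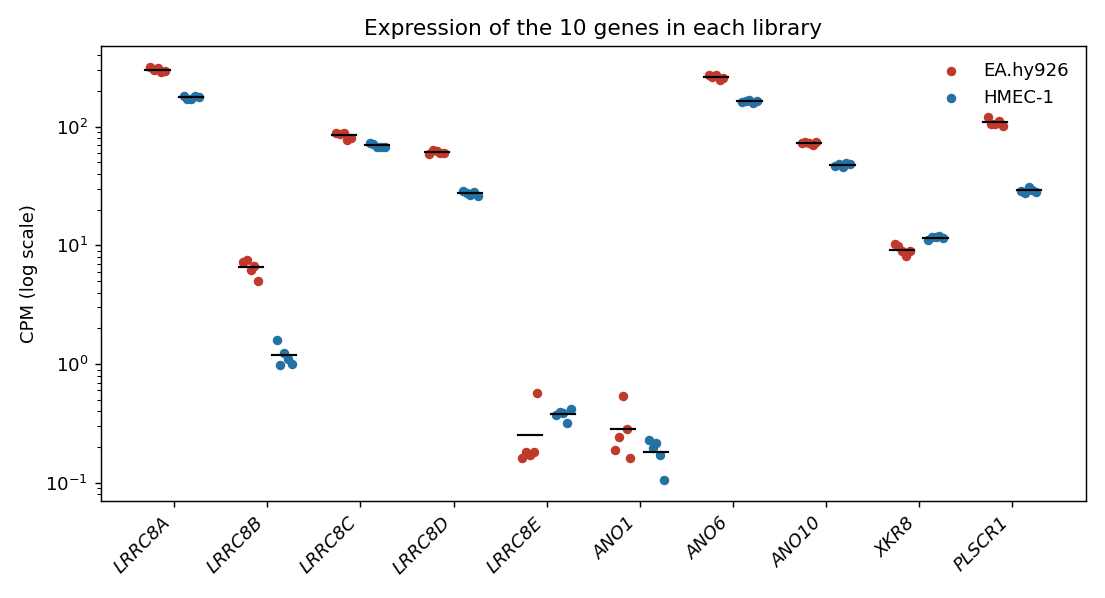
CPM on a log scale (y axis) of the 10 genes (x axis) in each of the 5 EA.hy926 (red) and 5 HMEC-1 (blue) libraries; each point is a library and each bar a mean. The points of the lines overlap for LRRC8E and ANO1, both under 1 CPM, and stand apart for the other 8 genes.

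**Figure D2:**
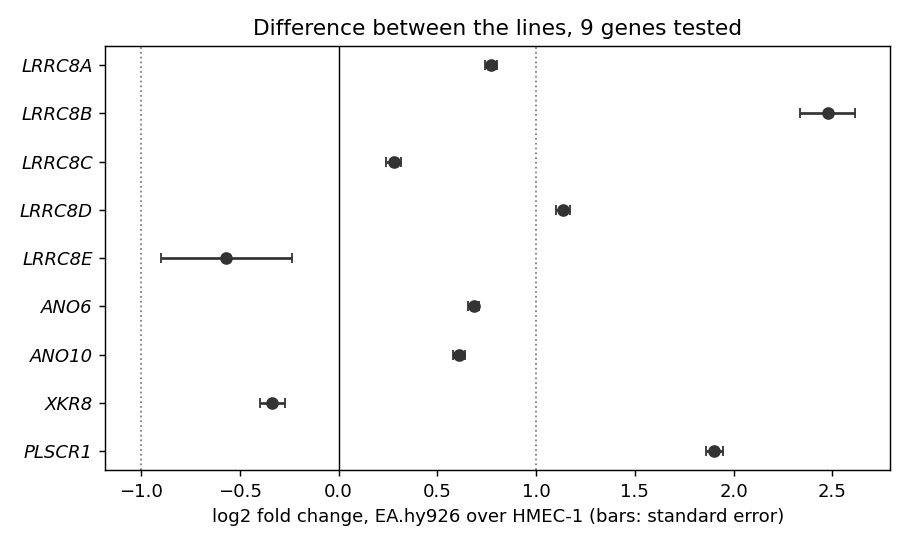
log2FC of EA.hy926 over HMEC-1 (x axis) with its standard error for the 9 genes tested (y axis); dotted lines mark an absolute log2FC of 1. LRRC8B at 2.48, PLSCR1 at 1.90 and LRRC8D at 1.14 lie beyond the dotted line, and the bar of LRRC8E, at -0.57, is the widest.

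LRRC8A (ENSG00000136802, GRCh38 chromosome 9, 128882133 to 128918039, plus strand) encodes the indispensable channel subunit and was the most abundant of the 10 genes in both lines. It had 321, 299, 315, 287 and 293 CPM in EA.hy926 replicates 1 to 5 and 183, 172, 172, 182 and 180 CPM in HMEC-1 replicates 1 to 5. Every EA.hy926 library lay above every HMEC-1 library. With means of 303 ± 14.4 and 178 ± 5.20 CPM, it was 1.71-fold higher in EA.hy926 (log2FC = 0.77, standard error 0.031, adjusted p = 1.2e-15), which is under the fold change threshold. The genes whose log2 CPM followed that of LRRC8A most closely over the 10 libraries were KIAA1549L, LTBP2 and SEL1L, each with a Pearson r of 0.998. As 5355 genes had an r over 0.9 and all libraries belong to one or the other line, this describes the contrast of the lines only.

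LRRC8A and LRRC8E are the most and the least abundant subunit genes, and their promoters are shown because both are rich in CpG. The sequences are those of RefSeq on GRCh38.p14, the 250 bases before the annotated start, 5′ to 3′, with each CpG in capitals. The LRRC8A window is chr9:128881883-128882132 and the LRRC8E window chr19:7888260-7888509, both on the plus strand.
LRRC8A: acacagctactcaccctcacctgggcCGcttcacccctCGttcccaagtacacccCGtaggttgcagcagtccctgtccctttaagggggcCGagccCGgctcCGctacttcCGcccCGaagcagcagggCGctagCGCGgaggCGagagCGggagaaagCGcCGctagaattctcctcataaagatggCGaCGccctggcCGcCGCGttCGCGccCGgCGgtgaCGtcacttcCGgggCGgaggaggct
LRRC8E: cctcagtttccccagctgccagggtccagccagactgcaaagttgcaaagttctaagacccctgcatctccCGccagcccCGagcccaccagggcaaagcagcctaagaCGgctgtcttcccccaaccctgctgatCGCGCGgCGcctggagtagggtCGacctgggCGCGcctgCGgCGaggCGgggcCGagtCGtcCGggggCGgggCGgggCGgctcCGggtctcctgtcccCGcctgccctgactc

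Over the full window of 300 bases, which also takes in 50 bases after the start, LRRC8A holds 31 CpG and LRRC8E 29, against a median of 14 over 27305 promoters of the same length. A number above that median is not particular to them, as LRRC8B holds 28, LRRC8C 43, LRRC8D 29, XKR8 27, PLSCR1 19 and ANO10 15. ANO1, which is near the limit of detection like LRRC8E, holds 36, more than the abundant LRRC8A. The CpG number of these windows therefore did not order LRRC8A, LRRC8E and ANO1 by level. The abundant ANO6 holds 2 in the window of its RefSeq start, chr12:45292440-45292739. That window lies inside the annotated gene, which begins at 45215987 on the plus strand. The value for ANO6 thus does not describe the bases around its annotated gene start and is not used for the comparison. Counts per gene do not show which start site was used.

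LRRC8B (ENSG00000197147, chromosome 1, 89524829 to 89597861, plus strand) showed the largest fold difference of the 10 genes. It had 7.31, 7.56, 6.18, 6.74 and 5.04 CPM in EA.hy926 replicates 1 to 5 and 1.60, 0.980, 1.24, 1.10 and 0.994 CPM in HMEC-1. The lowest EA.hy926 library was above the highest HMEC-1 library. The log2FC of 2.48 (standard error 0.138, adjusted p = 2.9e-13) is a 5.56-fold difference on a low level, with 187 to 270 counts against 38 to 57. It shares 11.9% of its exonic bases with other genes. One of them, the divergent transcript LRRC8C-DT on the opposite strand, had 32 to 53 and 19 to 32 counts.

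LRRC8C (ENSG00000171488, chromosome 1, 89633072 to 89769903) and LRRC8D (ENSG00000171492, chromosome 1, 89821014 to 89936611) follow LRRC8B on the same strand. LRRC8C had 88.4, 86.5, 87.9, 77.9 and 81.0 CPM in EA.hy926 replicates 1 to 5 against 72.6, 71.5, 67.7, 68.0 and 67.9 CPM in HMEC-1. The groups did not overlap, but came close, and the difference was 1.21-fold (log2FC = 0.28, standard error 0.036, adjusted p = 3.1e-07). LRRC8D, the subunit of channels that pass uncharged osmolytes, had 58.6, 63.1, 63.0, 59.5 and 59.6 CPM in EA.hy926 against 29.0, 27.9, 26.8, 28.3 and 26.2 CPM in HMEC-1. All EA.hy926 libraries were higher, by 2.20-fold on average (log2FC = 1.14, standard error 0.036, adjusted p = 1.2e-17). Scaled by library totals alone, its log2FC was 1.00, just past the threshold. The 3 neighbouring genes thus differed between the lines by unequal factors.

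LRRC8E (ENSG00000171017, chromosome 19, 7888505 to 7902021, plus strand), a paralog known mainly from epithelia, was barely detected. It had 6, 6, 6, 7 and 21 counts in EA.hy926 replicates 1 to 5 and 13, 16, 18, 13 and 16 in HMEC-1. Replicate 5 of EA.hy926 was higher than every HMEC-1 library, whereas the other 4 lay below all of them. The difference did not pass the test (log2FC = -0.57, standard error 0.333, adjusted p = 0.12). Without EA.hy926 replicate 5 the gene was lower in EA.hy926 past both thresholds (log2FC = -1.10, edgeR adjusted p = 0.0019), and in limma-voom it passed the adjusted p alone (log2FC = -0.72, adjusted p = 0.037). The long non-coding gene ENSG00000214248, on the opposite strand, shares 74.3% of the exonic bases of LRRC8E and had 0 to 3 and 1 to 7 counts. The sources used here do not state whether the counting used the strand, so the counts of LRRC8E are uncertain.

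Per kilobase of exon, the 5 LRRC8 genes summed to 78.7 ± 3.23 in EA.hy926 (range 74.8 to 82.1) and 45.9 ± 1.2 in HMEC-1 (range 44.5 to 47.5). LRRC8A made up nearly the same share of this pool in both lines, 73.9% ± 0.760 (range 72.9 to 75.0%) in EA.hy926 and 74.2% ± 0.714 (range 73.3 to 75.1%) in HMEC-1. Among the partner subunits, the shares of LRRC8B, LRRC8C and LRRC8D differed. LRRC8D made up 15.9% ± 0.724 in EA.hy926 and 12.4% ± 0.360 in HMEC-1, and LRRC8C 9.13% ± 0.18 against 12.9% ± 0.423, with no overlap between the libraries of the lines in either case. LRRC8B made up 1.01% ± 0.148 in EA.hy926 and 0.311% ± 0.0615 in HMEC-1, again without overlap. For LRRC8E, at 0.0749% ± 0.0541 and 0.190% ± 0.0215, the libraries overlapped (0.0457 to 0.171% and 0.158 to 0.211%). Its shares rest on few and uncertain counts, and no difference is read from them.

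The ratio of LRRC8D to LRRC8C per kilobase was 1.74 ± 0.0901 in EA.hy926 (1.60 to 1.85) and 0.960 ± 0.0280 in HMEC-1 (0.934 to 1.01). In HMEC-1 the levels of these neighbours in the order could not be separated, as the libraries of LRRC8C and LRRC8D overlapped. The order within a line depends on the length taken for each gene. With the length of the canonical transcript, the ratio was 1.31 in EA.hy926 and 0.721 in HMEC-1, whereas the contrast of the lines is the same for any length. Counts of mRNA do not show the composition of the assembled channel.

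**Figure D3:**
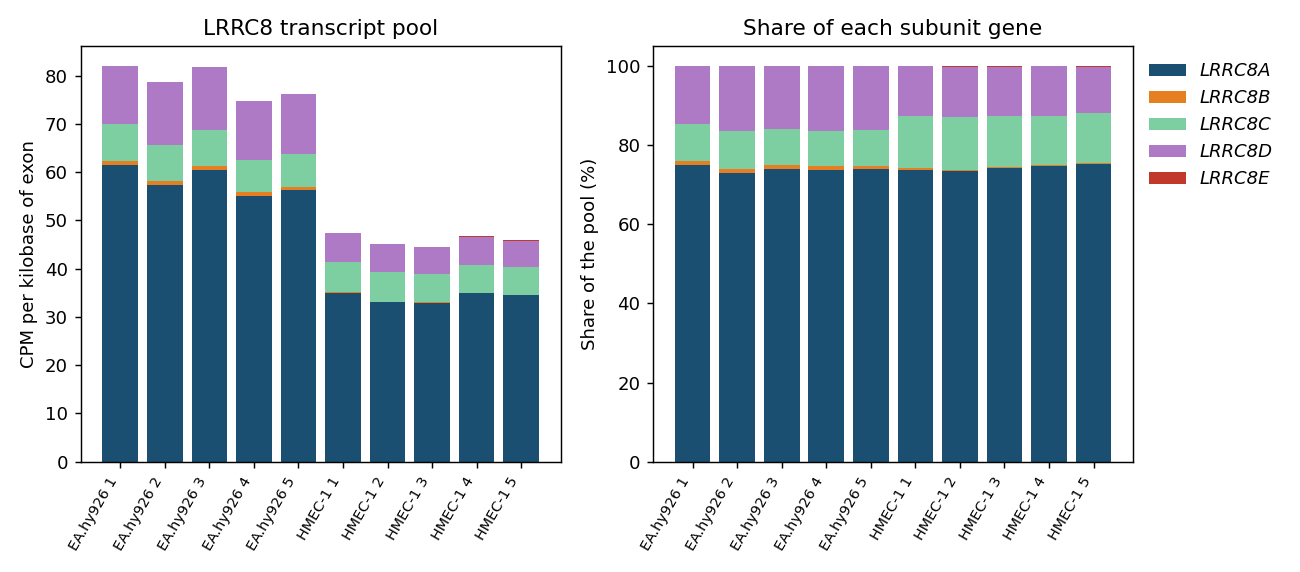
Left, CPM per kilobase of exon of the 5 LRRC8 genes stacked for each library (y axis) of EA.hy926 and HMEC-1 (x axis); right, the same as a share of the pool in percent. The EA.hy926 pools reach 74.8 to 82.1 and the HMEC-1 pools 44.5 to 47.5, while LRRC8A stays between 72.9% and 75.1% of the pool in all libraries.

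ANO6 (ENSG00000177119, chromosome 12, 45215987 to 45482280, plus strand) is the scramblase whose loss underlies the bleeding disorder Scott syndrome. It had 270, 264, 271, 248 and 258 CPM in EA.hy926 replicates 1 to 5 and 160, 163, 167, 160 and 166 CPM in HMEC-1. The groups did not overlap, and ANO6 was 1.61-fold higher in EA.hy926 (log2FC = 0.68, standard error 0.028, adjusted p = 1.0e-15). ANO10 (ENSG00000160746, chromosome 3, 43354859 to 43691594, minus strand), an anoctamin found in intracellular membranes, had 72.5, 73.8, 72.8, 69.8 and 74.5 CPM in EA.hy926 against 46.4, 48.3, 45.7, 49.2 and 48.8 CPM in HMEC-1. It was likewise higher in every EA.hy926 library, by 1.52-fold (log2FC = 0.61, standard error 0.030, adjusted p = 4.7e-14). Both stayed under the fold change threshold.

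ANO1 (ENSG00000131620, chromosome 11, 69985907 to 70189530, plus strand), the Ca2+-activated chloride channel, had 7, 8, 19, 11 and 6 counts in EA.hy926 replicates 1 to 5 and 8, 8, 10, 7 and 4 in HMEC-1. The lines overlapped at 0.284 ± 0.151 and 0.183 ± 0.0490 CPM. ANO1 did not pass the filter, and in the fit without a filter no difference was detected at this depth (log2FC = 0.59, standard error 0.401, edgeR adjusted p = 0.21). In bulk RNA, few cells with the transcript and little of it per cell cannot be told apart.

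XKR8 (ENSG00000158156, chromosome 1, 27959588 to 27968093, plus strand), the caspase-activated scramblase, was the only one of the 9 genes lower in EA.hy926 by the adjusted p. It had 10.3, 9.85, 9.0, 8.09 and 8.89 CPM in EA.hy926 replicates 1 to 5 and 11.2, 11.8, 11.7, 12.0 and 11.5 CPM in HMEC-1. The groups did not overlap, but the difference was 1.26-fold and under the threshold (log2FC = -0.34, standard error 0.063, adjusted p = 4.9e-05). Its chaperone basigin (BSG), which XKR8 needs to reach the plasma membrane, was higher in EA.hy926, with 1044 ± 15.1 CPM against 491 ± 10.4 CPM (log2FC = 1.09, standard error 0.023, adjusted p = 1.1e-20). With library totals BSG fell under the fold change threshold. The alternative chaperone NPTN had 151 ± 6.90 CPM in EA.hy926 against 168 ± 4.04 CPM (log2FC = -0.15, standard error 0.030, adjusted p = 7.7e-05), under the fold change threshold.

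PLSCR1 (ENSG00000188313, chromosome 3, 146515180 to 146544856, minus strand) encodes phospholipid scramblase 1, a Ca2+-binding, palmitoylated protein that interferons induce and whose own scrambling activity is debated. It had 121, 105, 106, 111 and 102 CPM in EA.hy926 replicates 1 to 5 and 28.7, 27.7, 30.9, 29.5 and 28.4 CPM in HMEC-1. Each EA.hy926 library was over 3 times the highest HMEC-1 library. The mean of 109 ± 7.39 CPM was 3.74-fold that of HMEC-1, 29.0 ± 1.25 CPM (log2FC = 1.90, standard error 0.043, adjusted p = 3.7e-20). Per kilobase of exon, PLSCR1 (25.1 ± 1.71) came after LRRC8A (58.1 ± 2.76) and ANO6 (29.7 ± 1.11) in EA.hy926 and above ANO10 (13.8 ± 0.339), LRRC8D (12.5 ± 0.439) and LRRC8C (7.19 ± 0.396). In HMEC-1, PLSCR1 (6.71 ± 0.289) was below ANO10 (9.02 ± 0.296) and above LRRC8C (5.93 ± 0.199), with no overlap between neighbours named here. XKR8 followed at 1.78 ± 0.168 and 2.24 ± 0.0615, and LRRC8B at 0.794 ± 0.122 and 0.143 ± 0.0307, while LRRC8E and ANO1 came last, with overlapping libraries in EA.hy926. This order depends on the length taken for each gene. PLSCR1 has 4332 exonic bases and a canonical transcript of 1976 bases, against 8816 and 5998 for ANO6. With the canonical length, PLSCR1 comes before ANO6 in EA.hy926.

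Since PLSCR1 is an interferon-induced gene, 15 interferon-stimulated genes were set beside it. All 15 were tested, and 12 were differentially expressed, all of them higher in EA.hy926, where the background in this direction is 19.1%. Their median log2FC was 2.34. The largest fitted differences were those of IFI44L, with 1208 to 2136 counts against 0 to 2 in HMEC-1 (at least 475-fold higher, adjusted p = 1.3e-18), and RSAD2, with 17 to 39 and 0 to 3 counts (at least 8.10-fold higher, adjusted p = 6.9e-09). MX1 and OAS3 had log2FC values of 0.42 and 0.45 with an adjusted p under 0.05, and IRF9, a subunit of the interferon-activated factor ISGF3, did not pass the test (log2FC = 0.12, adjusted p = 0.53). Their part in the level of PLSCR1 was not tested.

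The PLSCR1 promoter is shown for a core of the interferon-stimulated response element, searched on both strands as TTTC and, after any 2 bases, TTTC again, overlapping matches included. It occurred in 3.65% of all 27305 RefSeq promoters of 300 bases, in 1 of the 10 genes (PLSCR1) and in 8 of the 11 interferon-stimulated genes with a promoter in the table. In PLSCR1 the match lies on the opposite strand and begins 79 bases before the start. The window of 250 bases before the start is chr3:146544608-146544857, minus strand, GRCh38.p14, and the capitals mark the match.
PLSCR1: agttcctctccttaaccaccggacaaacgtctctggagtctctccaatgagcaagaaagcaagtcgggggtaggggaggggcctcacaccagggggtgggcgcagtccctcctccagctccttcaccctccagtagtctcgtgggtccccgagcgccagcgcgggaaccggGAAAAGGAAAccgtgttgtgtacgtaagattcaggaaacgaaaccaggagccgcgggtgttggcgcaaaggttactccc
For comparison, the first match in IFI44L (chr1:78620274-78620303, plus strand), IFIT1 (chr10:89392497-89392526, plus strand) and IFI6 (chr1:27672329-27672358, minus strand) reads as follows.
IFI44L: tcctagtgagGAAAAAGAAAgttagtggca
IFIT1: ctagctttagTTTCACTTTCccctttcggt
IFI6: ggagagagggGAAAATGAAActctgcagag
A match is a description of the letters and was not tested as a binding site.

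Of 7 further anoctamin genes, 6 were tested, 3 were higher (ANO2, ANO3, ANO9) and 2 lower (ANO4, ANO7) in EA.hy926, and ANO8, at 14.4 ± 1.04 and 14.3 ± 0.621 CPM, did not pass the test (log2FC = 0.01, standard error 0.055, adjusted p = 0.87). ANO9 had a log2FC of 1.66, ANO2 of 1.44 and ANO7 of -1.17, all at low levels, and in a test against the fold change threshold itself (glmTreat) ANO2 and ANO7 did not pass. ANO4, for which Ca2+-dependent scrambling has been described, had 728 to 989 counts in HMEC-1 and 0 in all EA.hy926 libraries, which makes it at least 230.3-fold lower there (adjusted p = 9.3e-20). ANO3 had 71 to 85 counts in EA.hy926 and none in the HMEC-1 libraries, a difference of at least 25.6-fold higher (adjusted p = 8.3e-13). Per kilobase, ANO4 in HMEC-1 (4.16 ± 0.140) was below ANO6 in the same line (18.5 ± 0.367), and ANO3 in EA.hy926 was at 0.281 ± 0.0329. Each line thus expressed 1 anoctamin gene that had no count in the other.

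Of 8 further XK family genes only XKRX was tested, and it was higher in EA.hy926, with 201 to 238 counts against 3 to 11 (log2FC = 4.94, standard error 0.158, adjusted p = 1.6e-17). Among the other scramblases, VMP1 and ATG9A, which act in autophagosome formation, were differentially expressed in opposite directions. VMP1 was higher, with a log2FC of 1.16 (standard error 0.047, adjusted p = 1.2e-15), and ATG9A was lower, with a log2FC of -1.50 (standard error 0.029, adjusted p = 3.2e-21). Other genes cover 38.8% of the exonic bases of ATG9A. PLSCR4, named after its values were seen, had a higher mean per kilobase than any of the 10 genes, at 71.1 ± 6.19 in EA.hy926 and 36.9 ± 1.61 in HMEC-1. In HMEC-1 its libraries overlapped those of LRRC8A (34.1 ± 0.999 per kilobase). By mean CPM, PLSCR4 was below LRRC8A, at 301 against 303 in EA.hy926 and 156 against 178 in HMEC-1. The log2FC of PLSCR4, 0.94 (standard error 0.045, adjusted p = 2.2e-14), stayed under the threshold. PLSCR3, likewise named afterwards, had at most 3 counts in any library, and its level is uncertain because 76.6% of its exonic bases are shared with other genes.

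Some flippases of the P4-ATPase family return phosphatidylserine and phosphatidylethanolamine to the inner leaflet and so oppose the scramblases. The list takes in the family as a whole, and its counts do not measure that return. Of 16 flippase and subunit genes, 12 were tested, 1 was higher and 4 were lower in EA.hy926. ATP9A was higher, with 109 ± 4.2 CPM against 27.0 ± 1.24 CPM (log2FC = 2.01, standard error 0.036, adjusted p = 7.2e-22). Lower were ATP11B (log2FC = -1.40, standard error 0.040), ATP11A (log2FC = -1.22, standard error 0.038) and ATP8B3 (log2FC = -1.22, standard error 0.066), with adjusted p of 1.8e-18, 8.3e-18 and 2.1e-13. The fourth was TMEM30B, with 13 to 29 counts in HMEC-1 and 0 in EA.hy926 (at least 6.01-fold lower, adjusted p = 4.5e-08). ATP8A1 lay just under the fold change threshold and passed it without any 1 of 5 libraries (EA.hy926 replicates 1, 4 and 5 and HMEC-1 replicates 1 and 4), with a log2FC of down to -1.12. With all libraries, ATP8A1 also passed in limma-voom (log2FC = -1.06) and with library totals (log2FC = -1.12). The same held without a filter and with a replicate block (log2FC = -1.01 in each). The main subunit gene TMEM30A was at 409 ± 17.5 and 379 ± 12.2 CPM.

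**Figure D4:**
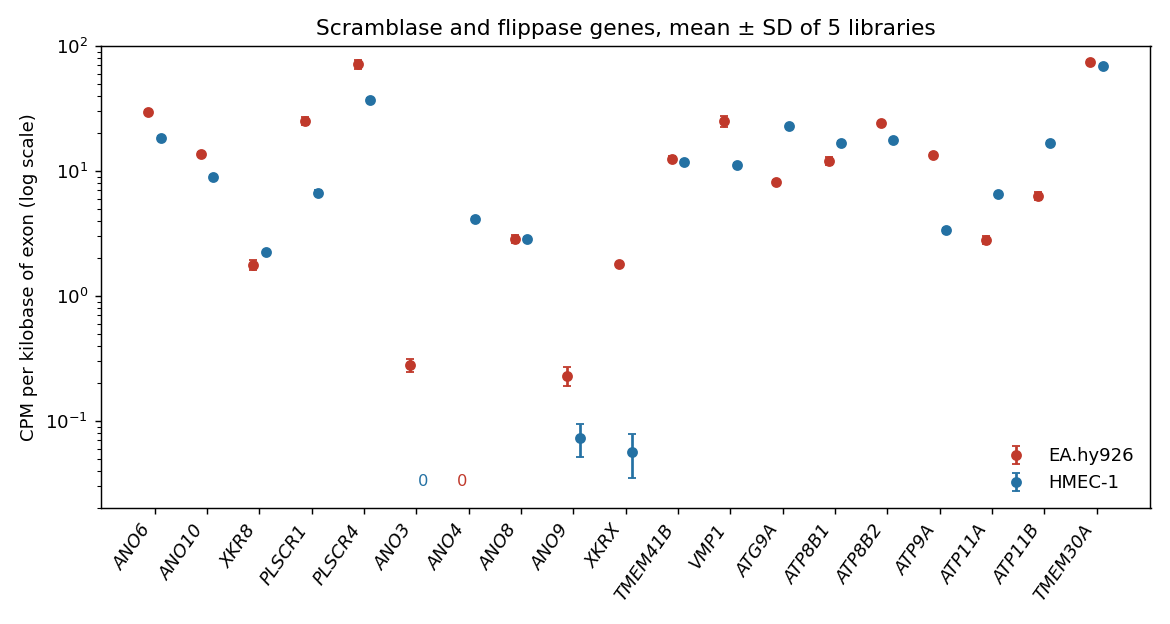
CPM per kilobase of exon on a log scale (y axis), mean ± SD over 5 libraries, of scramblase and flippase genes (x axis) in EA.hy926 (red) and HMEC-1 (blue); a 0 marks a gene without counts. ANO3 has no count in HMEC-1 and ANO4 none in EA.hy926, and the reds lie above the blues for PLSCR1 and ATP9A and below them for ATG9A, ATP11A and ATP11B.

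Other chloride channels divided in direction. Of 25 genes 15 were tested, with 3 higher and 2 lower in EA.hy926. Among the higher were CLIC2, an intracellular chloride channel protein, with 160 to 214 counts against 0 to 1 (at least 59.4-fold higher, adjusted p = 2.4e-17), CLIC3 (log2FC = 1.84, standard error 0.072, adjusted p = 5.9e-16) and TTYH2 (log2FC = 1.23, standard error 0.247, adjusted p = 1.1e-04). TTYH2 was lost in the glmTreat test against the fold change threshold (adjusted p = 0.20). SLCO2A1, a prostaglandin transporter also described as the core of the maxi-anion channel, had 203 ± 6.37 CPM in HMEC-1 and 4.88 ± 0.903 CPM in EA.hy926 (log2FC = -5.38, standard error 0.062, adjusted p = 4.3e-25). CLIC1 lay just under the threshold and passed it without HMEC-1 replicate 1, 3, 4 or 5 (log2FC of -1.01 to -1.02). It also passed with library totals (log2FC = -1.13) and without a filter on low counts (log2FC = -1.02). The acid-activated channel gene PACC1 differed little (log2FC = -0.13, adjusted p = 0.032).

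Of 13 osmotic response genes 11 were tested, 4 were higher and 3 lower in EA.hy926. The higher genes were NFAT5, the transcription factor of the hypertonic response (log2FC = 1.02, standard error 0.080, adjusted p = 1.0e-10), and SLC5A3, AKR1B1 and HSPA4L, known as its targets, with log2FC values of 2.01, 1.18 and 1.32. NFAT5 lay at the fold change threshold and fell under it without EA.hy926 replicate 1, 2 or 3 or HMEC-1 replicate 2, 3 or 5 (log2FC of 0.96 to 1.00), with library totals (log2FC = 0.89), and in the glmTreat test (adjusted p = 0.51). SLC6A6, the transporter of taurine, an osmolyte that leaves through LRRC8 channels, had a log2FC of 0.82 (standard error 0.027, adjusted p = 3.1e-17). The lower genes belong to the kinases that control cation-chloride cotransport. WNK4 was at 1.36 ± 0.13 CPM against 31.3 ± 1.03 CPM (log2FC = -4.53, standard error 0.066, adjusted p = 1.9e-23), STK39 had a log2FC of -1.11 (standard error 0.039, adjusted p = 9.0e-17), and WNK3 had 0 counts against 10 to 16 (at least 3.47-fold lower, adjusted p = 2.0e-07). WNK1 did not pass the test (log2FC = 0.02, adjusted p = 0.58).

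Receptors and bridging proteins that recognize exposed phosphatidylserine were tested for 8 of 11 genes, with 3 higher and 1 lower in EA.hy926. MERTK, a receptor kinase of apoptotic cell uptake, had 72.9 ± 2.26 CPM against 7.68 ± 0.210 CPM (log2FC = 3.24, standard error 0.039, adjusted p = 7.4e-25). STAB1, a scavenger receptor, was higher as well (log2FC = 1.98, standard error 0.052, adjusted p = 4.7e-19). Of the ligands that bridge phosphatidylserine to MERTK and its relatives, PROS1 was higher (log2FC = 1.10, standard error 0.045, adjusted p = 1.2e-15) and GAS6 lower (log2FC = -1.24, standard error 0.040, adjusted p = 1.8e-17). With library totals PROS1 fell under the fold change threshold (log2FC = 0.96). In the cyclic dinucleotide pathway, whose messenger cGAMP can pass LRRC8 channels, 6 of 7 genes were tested and 2 were higher in EA.hy926. STING1, the cGAMP sensor, had 213 ± 10.4 CPM against 58.5 ± 3.02 CPM (log2FC = 1.86, standard error 0.037, adjusted p = 4.4e-21). ENPP1, which hydrolyzes extracellular cGAMP, had 40.7 ± 1.73 CPM against 0.776 ± 0.110 CPM (log2FC = 5.71, standard error 0.072, adjusted p = 2.0e-24), while the synthase gene CGAS did not pass the test (log2FC = 0.14, adjusted p = 0.092).

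Over the 10 lists, 83 of 114 genes were tested, and 31 were higher and 13 lower in EA.hy926 past both thresholds, against 19.1% higher and 16.4% lower of all genes tested, and their median log2FC was 0.28. Of the 31 higher genes, 12 are the interferon-stimulated ones. The medians of the lists, as far as they held more than 1 tested gene, ran from -0.59 for the flippases to 2.34 for the interferon-stimulated genes. Members of a list with at most 3 counts in every library of a line entered at their lower bound in the plot of the lists, and their median was the same with either value.

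**Figure D5:**
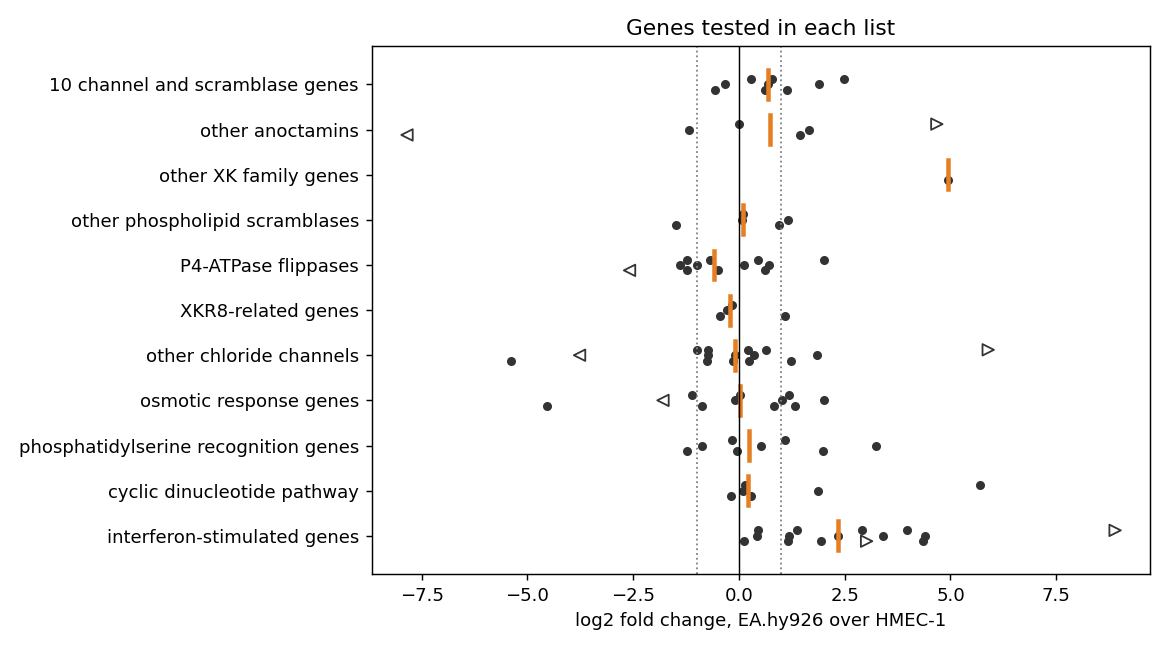
log2FC of EA.hy926 over HMEC-1 (x axis) of the tested genes (points) of the 10 channel and scramblase genes and of each list (y axis); orange bars are medians, dotted lines an absolute log2FC of 1, and open triangles lower bounds for genes with at most 3 counts in every library of one line. The interferon-stimulated genes have a median of 2.34 and no gene below 0, and the other lists with more than 1 tested gene lie on both sides of 0.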

How the data were processed

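The values the authors deposited are raw counts per Ensembl gene, not normalized. The paper's methods name HISAT2, GRCh38 and HTSeq, whereas the submitters' processing notes name fastp, HISAT2, featureCounts and DESeq2. The annotation release and the strand setting are not given in the sources used here. GENCODE 44 gave symbols, positions and exon lengths for 56434 of 60448 identifiers, and bedtools 2.31.1 the shared exonic bases.

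Low genes were removed by filterByExpr (count 10, total count 15) and the rest tested on TMM-scaled counts by glmQLFTest (edgeR 4.0.16, R 4.3.3) without covariates. Standard errors are the absolute log2FC over the square root of F. Bounds on folds take 3 counts in a library as the floor, 0.0651 to 0.0904 CPM, and cover counting error only.

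The genes and lists were chosen with earlier results of these data known. Named are the 10 genes, up to 2 genes per list and direction with the largest differences past both thresholds, all where a group held 5 or fewer, and the 3 genes most like LRRC8A. PLSCR3, PLSCR4, ANO8, ATP8A1, TMEM30A, CLIC1, PACC1, SLC6A6, WNK1, CGAS, MX1, OAS3, IRF9, NPTN and the 5 epithelial markers with values were added after their values were seen. Results for some list genes are not reported here, although the counts over lists include them. Alternatives were DESeq2 1.42.0, limma-voom (limma 3.58.1, the package the paper names), other filters and factors, a replicate block, glmTreat and each library left out. Scripts were tested on simulated data, and no replicate libraries agreed within counting noise.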

Additional observations from a re-analysis of the deposited data

Results flagged for a closer look

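LRRC8E in EA.hy926 replicate 5 had 0.566 CPM, while the other 4 EA.hy926 libraries had 0.162 to 0.182 CPM. The gap made up 0.951 of the range of the line, above Dixon's critical value of 0.71 for 5 libraries. It was the only library flagged in 20 groups, and chance alone flags about 1 group in 20. The value rests on 21 counts.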

How the results depend on the processing

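LRRC8B, LRRC8D and PLSCR1 passed both thresholds under all alternatives, and the log2FC of LRRC8A, LRRC8C, ANO6, ANO10 and XKR8 kept its direction and an adjusted p under 0.05 in each of 17 alternative fits. For LRRC8E, 2 of 16 fits gave an adjusted p under 0.05, and its log2FC ran from -1.10 to -0.44 with each library left out. With each library left out, 3 to 4 of the 10 genes passed both thresholds, the fourth being LRRC8E without EA.hy926 replicate 5. Of all genes, 9312 passed without a filter and 3255 with at least 10 counts in every library, against 5784. Library totals moved the log2FC of all genes by a median of -0.13, brought LRRC8C to 0.14 and LRRC8D to 1.00. With the canonical transcript length, LRRC8A made up 71.3% of the LRRC8 pool in EA.hy926 and 70.7% in HMEC-1, and LRRC8C 12.0% and 16.7%. The replicate block gave 5786 genes and the same 3 of the 10, and changed 1 call in the lists, that of ATP8A1, which then passed (log2FC = -1.01). Replicate numbers did not pair the libraries, as the correlation of deviations of one number was -0.023 to 0.039, and 2 of 5 EA.hy926 libraries correlated best with their own number. Of the lists, the other anoctamins fell from 5 to 2 genes, the other chloride channels from 5 to 2 and the XK family from 1 to 0 with at least 10 counts in every library. Without a filter the chloride channels rose to 10 and the XK family to 4, and with glmTreat the anoctamins fell to 3. The genes lower over all lists rose from 13 to 20 without a filter, and with library totals BSG left its list at 0.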
